A study of Homo sapiens with 13 samples.

Results

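The genes described here are those that copy DNA in S phase and those that divide the chromosomes in mitosis, with the D cyclins beside them. They were chosen by name: 43 symbols were listed, and 42 of them occur among the 31334 symbols of the array, on 64 of the 47230 probes used. The mitotic kinase CDK1 is present only under its older name CDC2, which is used below. Of the 42 genes 20 belong to the S phase group, 19 to the mitosis group and 3 are D cyclins. All 42 were detected on at least 1 day of the time course, 38 of them on all 9 days. In the sorted fractions 40 were detected at least once, and CDC6 and GINS1 were not detected in any fraction.

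The cells were RUNX1C GFP/w reporter cells, human embryonic stem cells derived from the HES3 line and kept on mouse feeder cells in KOSR medium with FGF2. They were differentiated toward blood in APEL medium as spin EBs (embryoid bodies, cell aggregates made in a centrifuge), with BMP4, VEGF, SCF and activin up to day 4 and with BMP4, VEGF, SCF, FGF2 and IGF2 after a change of medium on day 4. The time course held undifferentiated cells (day 0) and unsorted cells of days 1 to 8. A second experiment held 4 fractions sorted on day 7, named by the surface proteins CD34 and CD41: CD34lo CD41lo, CD34hi CD41-, CD34lo CD41- and CD34- CD41-. CD34 marks blood progenitors and endothelium, and CD41 marks early blood cells and the platelet lineage. Every day and every fraction had 1 array, from 1 reporter line, so levels are given without an error. Sorted and unsorted cells were on different chips, so that chip and sorting cannot be told apart and no level is compared between the 2 experiments.

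Before a cell can copy its DNA, the origin recognition complex, CDC6 and CDT1 load the ring of MCM2 to MCM7 on the chromosomes, and CDC45 and the GINS complex then turn the ring into a moving helicase. Cyclin E drives entry into S phase, ribonucleotide reductase and thymidylate synthase supply the nucleotides, and PCNA clamps the polymerases to DNA. Cyclins A and B with CDK1, the Aurora and Polo kinases, the spindle checkpoint and the anaphase promoting complex then lead the cell through mitosis. Many S phase genes are induced by E2F factors at the end of G1, whereas many mitosis genes are held back until G2 through a promoter element named CHR. Pluripotent stem cells are known for a short G1 phase and rapid division.

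Levels are normalized log2 intensities of 1 probe per gene, so that a difference of 1 is 2-fold. They compare 1 gene between arrays and not 1 gene with another. Arrays detected 15134 to 17833 probes, and the lowest level of a detected probe was between 5.29 and 5.73. The transcripts of the sorted proteins followed the labels of the fractions: CD34 was highest in CD34hi CD41- cells (10.06 in CD34lo CD41lo, 12.88 in CD34hi CD41-, 10.58 in CD34lo CD41- and 8.52 in CD34- CD41- cells), and ITGA2B, which encodes CD41, was highest in CD34lo CD41lo cells (9.19, against 5.26, 5.96 and 4.70 in the other 3 fractions in that order, the first and the last not detected). The RNA comes from many cells at once, so fewer dividing cells and less RNA per cell cannot be told apart in any result below.

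Most members of both groups fell over the time course, and the S phase group was lower earlier than the mitosis group. A smooth curve over the 9 days (limma, natural spline) gave a trend with an adjusted p below 0.05 in 16 of 20 S phase genes and 17 of 19 mitosis genes, where 41.1% of the 16710 genes tested had one. Adjusted p-values here are Benjamini-Hochberg values over all genes tested, and they measure how far single arrays scatter around the curve, not how far cultures differ. A gene was called changed over an interval when the fitted change was at least 2-fold with an adjusted p below 0.05.

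**Figure D1:**
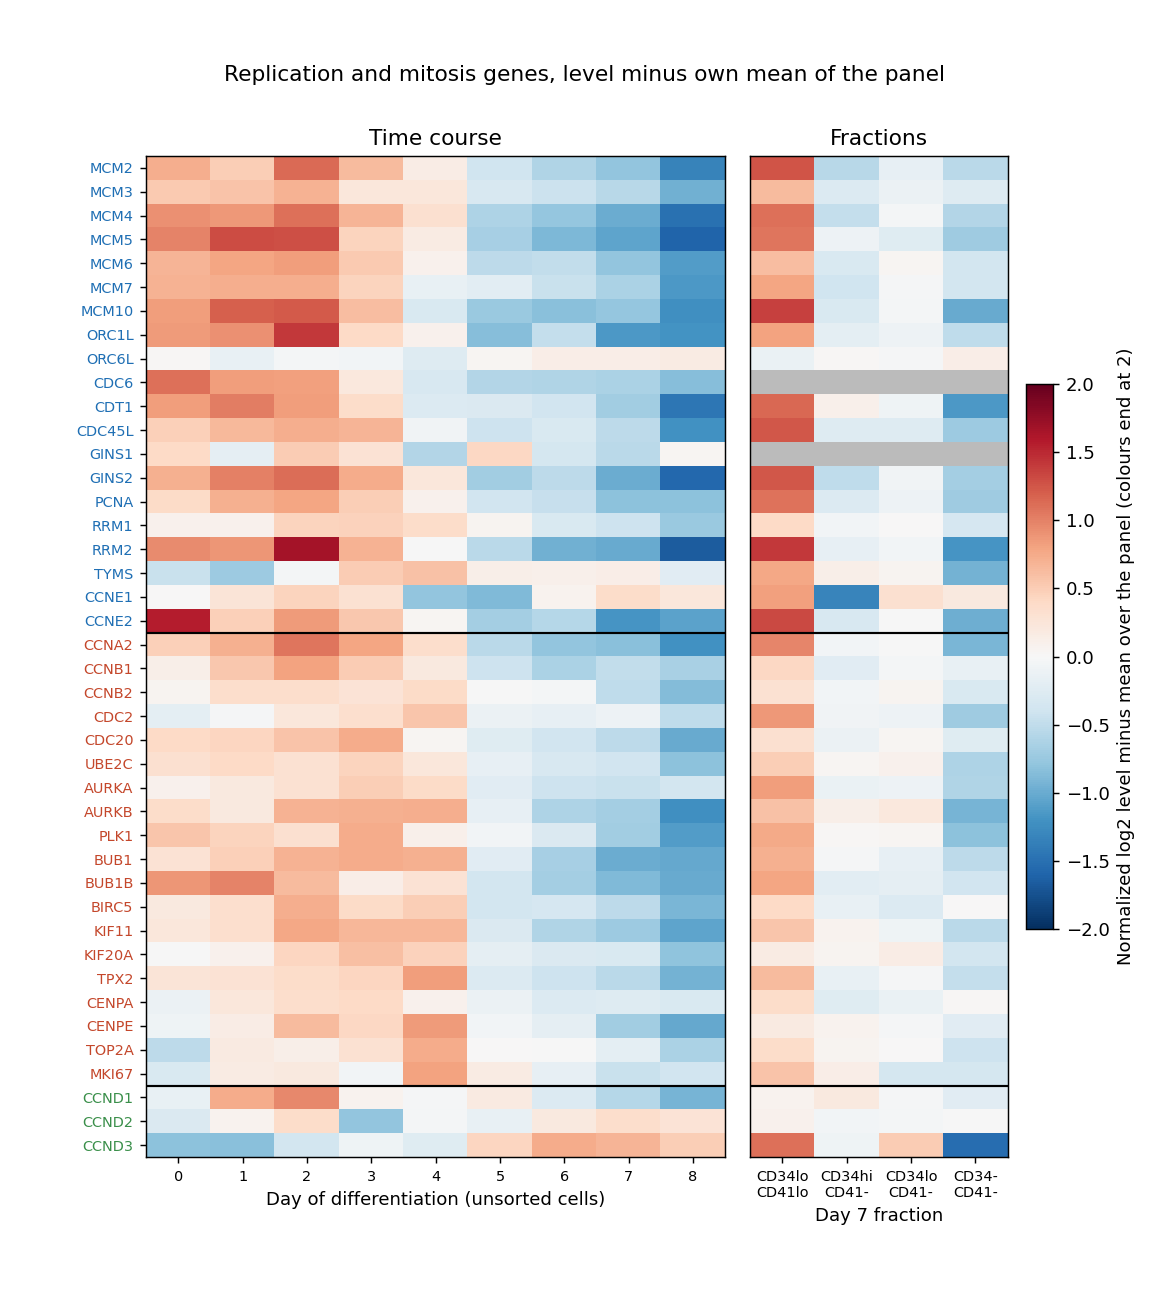
Normalized log2 level of each member minus its own mean over the 9 days (left) or over the 4 day 7 fractions (right), with S phase genes in blue type, mitosis genes in red and D cyclins in green. Most genes pass from red to blue along the days and are reddest in the CD34lo CD41lo fraction, and the grey cells are CDC6 and GINS1, which were not detected in the fractions.

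In the S phase group, the median level relative to day 0 was 0.04 on day 1, 0.27 on day 2, -0.20 on day 3, -0.69 on day 4, -1.12 on day 5, -1.20 on day 6, -1.50 on day 7 and -1.89 on day 8 (log2). Thus the group peaked on day 2 and was below its starting level from day 3 on. The median of all genes tested stayed between -0.03 and 0.02 on the same days. Of the 20 S phase genes 12 had their highest level on day 2 and 17 on one of days 0 to 2, against 42.1% of all genes, and 16 had their lowest level on day 7 or 8, against 26.8% of all genes. CDC6, counted in the 17 and the 16, was detected on the first 4 days alone. GINS1, counted in the 12 and the 17, was near the limit of detection, with levels of 4.68 to 5.78 and detection on 5 of the 9 days. Between days 2 and 3 the level was lower in 18 of the 20, beside 8460 of the 16710 genes tested. Between days 3 and 4 it was lower in 19 of the 20, beside 8469 of all genes.

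The mitosis group stayed high for longer. Its median relative to day 0 was 0.14 on day 1, 0.43 on day 2, 0.34 on day 3, 0.32 on day 4, -0.52 on day 5, -0.65 on day 6, -0.70 on day 7 and -1.12 on day 8 (log2). Of the 19 genes 14 had their highest level on day 3 or 4, where 19.9% of all genes had theirs, and all 19 had their lowest level on day 7 or 8. MKI67, 1 of the 14, was detected on day 4 alone and could not be highest elsewhere. Its levels on other days were not detected, and it is in every count of mitosis genes in this paragraph. Between days 2 and 3, 8 of the 19 were lower, near the share of all genes (8460 of 16710). Between days 4 and 5, the days on either side of the change of medium, all 19 were lower, by a median of -0.65, as were 18 of the 20 S phase genes, by a median of -0.47. Over the same day 8819 of 16710 genes were lower, with a median of -0.03. The difference in timing between the groups is a description and was not tested.

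**Figure D2:**
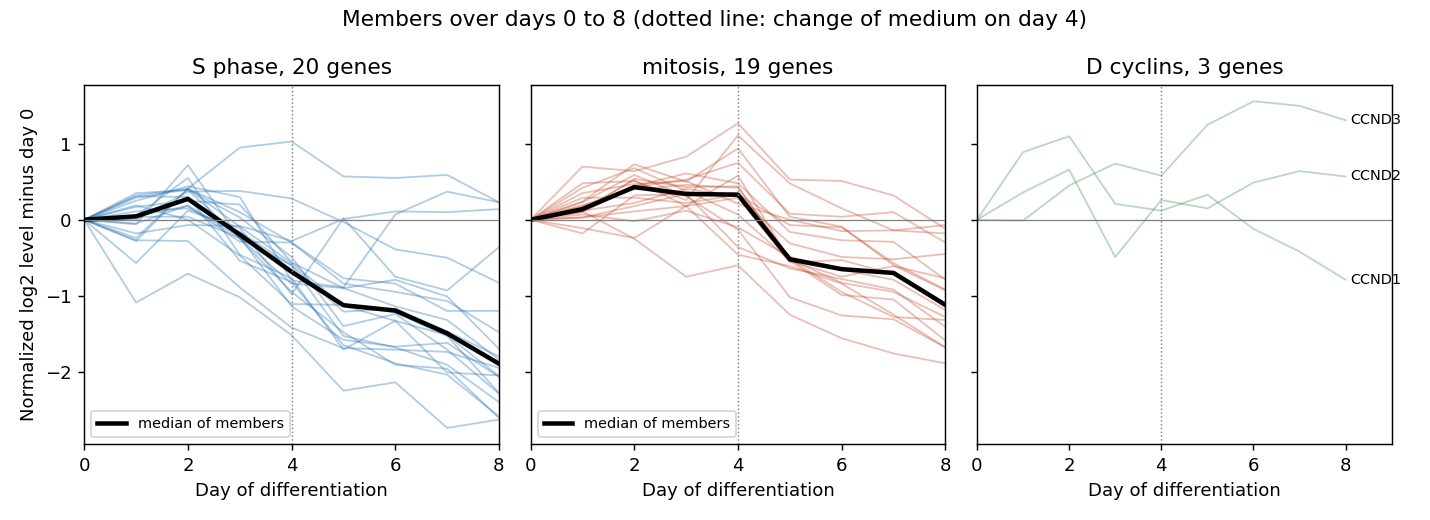
Normalized log2 level minus the level on day 0, by day of differentiation, for each S phase gene, each mitosis gene and each D cyclin (thin lines), with the median of the group as a thick black line. The S phase median is below 0 from day 3 on, the mitosis median drops between days 4 and 5, and CCND3 ends above its starting level.

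Licensing and helicase genes were 14 of the 20 S phase genes. From day 4 to day 8, 11 of the 20 S phase genes fell and none rose, where 2.81% of all genes fell and 5.22% rose, and 9 of the 11 belong to licensing and the helicase. Of the 3 nucleotide supply genes 2 fell, so the share was no higher among licensing and helicase genes. The median fitted change of the S phase group was -1.11, against -0.05 over all genes. All 6 subunits of the MCM ring fell, as did the loader CDT1 and the helicase partners CDC45L and GINS2.

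MCM4, a ring subunit, had levels of 11.44, 11.39, 11.63, 11.20, 10.84, 9.91, 9.76, 9.53 and 9.04 on days 0 to 8. The first 5 days all lay above the last 4. Its fitted change from day 4 to day 8 was -1.59 ± 0.22 (SE, limma adjusted p = 0.00348), and the level was 3.46-fold lower on day 8 than on day 4 and 5.25-fold lower than on day 0.

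GINS2, a subunit of the GINS complex, had levels of 10.68, 10.97, 11.08, 10.71, 10.19, 9.28, 9.44, 8.97 and 8.39 on days 0 to 8. It was highest on day 2, and the step of nearly 1 unit between days 4 and 5 was its largest between neighbouring days. The fitted change from day 4 to day 8 was -1.67 ± 0.26 (limma adjusted p = 0.00602).

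MCM5 had levels of 10.03, 10.34, 10.33, 9.49, 9.21, 8.38, 8.14, 7.99 and 7.44 on days 0 to 8. It was high on days 0 to 2 and was already lower on day 3. The fitted change from day 4 to day 8 was -1.58 ± 0.26 (limma adjusted p = 0.00705), and over the whole course the level was 6.02-fold lower on day 8 than on day 0.

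MCM2 had levels of 9.53, 9.29, 9.94, 9.44, 8.96, 8.40, 8.20, 8.01 and 7.47 on days 0 to 8, and MCM6 had levels of 12.13, 12.24, 12.28, 11.97, 11.53, 10.92, 10.96, 10.66 and 10.33. Both ring subunits peaked on day 2 and were lowest on day 8. From day 4 to day 8 MCM2 fell by 1.45 ± 0.26 (limma adjusted p = 0.01) and MCM6 by 1.14 ± 0.21 (adjusted p = 0.0108) on the log2 scale.

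The remaining S phase genes that fell from day 4 to day 8 had fitted changes between -1.0 (MCM3) and -1.69 (RRM2, the small subunit of ribonucleotide reductase). RRM2 had the widest range of the group, 9.82 on day 2 against 6.49 on day 8. The large subunit RRM1 held its level longer, with 11.40 on day 3 and 11.30 on day 4, before it fell by 1.04 ± 0.19 (limma adjusted p = 0.0114). Without the array of day 4 the call of RRM1 was lost. The clamp PCNA changed by -0.94 ± 0.19 (adjusted p = 0.0177), which is below 2-fold.

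Over the whole course, from day 0 to day 8, 15 of the 20 S phase genes fell and none rose, where 10.8% of all genes fell and 12.3% rose. The median fitted change was -1.81, against -0.04 over all genes. The group of 15 includes PCNA, the origin subunit ORC1L, the helicase factor MCM10, the loader CDC6 and cyclin E2 (CCNE2), none of which passed from day 4 to day 8 alone. CDC6 was detected on the first 4 days alone and entered through them, so it adds no support to the count. Over the first interval, day 0 to day 4, 2 S phase genes fell and 1 rose, where 6.24% of all genes fell and 6.56% rose, and the median change was -0.56.

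Fitted changes from day 0 to day 4 were negative in 18 of the 20 S phase genes, beside 8313 of the 16710 genes tested. Most of the 18 were short of the call, and they include CDC6 and GINS1, detected on 4 and 5 of the 9 days. The 2 that passed as lower were CDC6 and CCNE2, a share near that of all genes. CDC6 had levels of 6.52, 6.25, 6.24, 5.63, 5.10, 4.83, 4.81, 4.78 and 4.57 on days 0 to 8 and was detected on the first 4 days alone, so that it entered the table through the days on which it was high. Its call therefore adds no support to a fall of the group. CCNE2 had levels of 7.96, 6.87, 7.25, 6.94, 6.44, 5.71, 5.82, 5.22 and 5.33, with its highest level in undifferentiated cells. From day 0 to day 4 CDC6 fell by 1.28 ± 0.22 (limma adjusted p = 0.00531) and CCNE2 by 1.33 ± 0.33 (adjusted p = 0.0271) on the log2 scale, and the CCNE2 call did not hold without day 5, with the submitters' normalized values or with no filter, while that of CDC6 did not hold with an offset of 50.

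TYMS (thymidylate synthase), which makes the thymidine nucleotide, went the other way. Its levels were 9.93, 9.65, 10.34, 10.88, 10.96, 10.50, 10.48, 10.52 and 10.16 on days 0 to 8, with the highest on day 4. It rose from day 0 to day 4 by 1.07 ± 0.30 (limma adjusted p = 0.0418), and its trend over the whole course had an adjusted p of 0.072. The call did not hold when any 1 of days 1, 3, 4, 5, 6 or 7 was left out, with no filter or with the submitters' normalized values.

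The other 3 S phase genes showed no trend by the test. Cyclin E1 (CCNE1) had levels of 9.28, 9.53, 9.72, 9.58, 8.48, 8.39, 9.35, 9.65 and 9.51 on days 0 to 8, low on days 4 and 5 alone. Its trend had an adjusted p of 0.239. ORC6L, an origin subunit, was bright and flat, between 13.38 and 13.80, and its second probe, which is dimmer, had a fitted change of -0.43 from day 4 to day 8. GINS1 was near the limit of detection, with levels of 4.68 to 5.78 and detection on 5 of the 9 days.

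Promoters of the 3 S phase genes among MCM4, GINS2, MCM5, MCM2 and MCM6 that have 1 start in the RefSeq table (build GRCh38.p14) are printed here to show the letters such genes share. Each runs from 250 bases before to 50 after the start, 5′ to 3′ on the strand of the gene, with capitals on letters of an E2F site (TTTCCCGC, TTTGGCGC, TTTCGCGC or TTTGCCGC), a CHR element (TTTGAA or TTCGAA) or a CCAAT box (CCAAT), on either strand. GINS2 lies at chr16:85688905-85689204 on the minus strand, MCM2 at chr3:127598161-127598460 on the plus strand and MCM6 at chr2:135876394-135876693 on the minus strand.
GINS2: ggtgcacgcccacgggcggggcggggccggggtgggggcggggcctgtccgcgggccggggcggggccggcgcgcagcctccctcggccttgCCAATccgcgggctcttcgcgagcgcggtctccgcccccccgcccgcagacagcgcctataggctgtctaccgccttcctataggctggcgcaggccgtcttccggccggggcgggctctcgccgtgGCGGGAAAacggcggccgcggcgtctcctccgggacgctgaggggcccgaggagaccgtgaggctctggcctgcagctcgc
MCM2: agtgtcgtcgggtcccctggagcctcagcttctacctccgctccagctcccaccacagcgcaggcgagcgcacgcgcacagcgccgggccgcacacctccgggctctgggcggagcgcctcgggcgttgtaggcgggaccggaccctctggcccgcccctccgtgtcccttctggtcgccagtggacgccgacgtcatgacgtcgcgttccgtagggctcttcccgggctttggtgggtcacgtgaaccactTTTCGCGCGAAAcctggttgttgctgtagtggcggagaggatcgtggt
MCM6: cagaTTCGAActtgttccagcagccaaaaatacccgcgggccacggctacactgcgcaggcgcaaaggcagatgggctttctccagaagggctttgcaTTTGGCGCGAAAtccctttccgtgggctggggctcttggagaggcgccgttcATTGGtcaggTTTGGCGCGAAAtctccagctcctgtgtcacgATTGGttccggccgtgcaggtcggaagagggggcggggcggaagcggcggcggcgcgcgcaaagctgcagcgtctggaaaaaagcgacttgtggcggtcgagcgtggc

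GINS2 holds 1 set of E2F letters and 1 CCAAT box. MCM2 holds 2 overlapping sets of E2F letters at the start of the transcript and no CCAAT box. MCM6 holds 4, as 2 overlapping pairs, with 2 CCAAT boxes and 1 set of CHR letters at the far end. Of the 17 S phase genes in the table, 10 held E2F letters (58.8%), against 3.99% of the 27305 genes with a promoter there. CHR letters stood in 2 of the 17 (11.8%), against 19.5% of all genes.

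In the mitosis group 13 of 19 genes fell from day 4 to day 8 and none rose, beside the 2.81% and 5.22% of all genes given above. The median fitted change was -1.10, and all 19 fitted changes were negative, beside 8969 of the 16710 genes tested. The count of genes that fell was 8 without the array of day 4. From day 0 to day 8, 10 of the 19 fell and none rose, beside 10.8% and 12.3% of all genes, with a median of -1.01. From day 0 to day 4 none passed in either direction, and the median was 0.18. Positive were 13 of 19 fitted changes, where 8313 of all 16710 genes had negative ones. MKI67, detected on day 4 alone, is counted among these 13 and among the 19 negative changes from day 4 to day 8.

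CCNA2 (cyclin A2), which acts in S phase and at entry into mitosis, had levels of 10.66, 10.89, 11.25, 10.97, 10.53, 9.64, 9.40, 9.35 and 8.98 on days 0 to 8. All levels up to day 4 lay above all later ones. It fell from day 4 to day 8 by 1.36 ± 0.21 on the log2 scale (limma adjusted p = 0.00531), and the level was 2.92-fold lower on day 8 than on day 4.

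BUB1, a kinase of the spindle checkpoint, had levels of 9.48, 9.67, 9.88, 9.94, 9.90, 8.96, 8.53, 8.20 and 8.16 on days 0 to 8. It was level from day 2 to day 4 and then dropped by nearly 1 unit within a day. It fell from day 4 to day 8 by 1.5 ± 0.24 (limma adjusted p = 0.00617).

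CENPE, a motor that moves chromosomes to the spindle equator, had levels of 8.84, 9.08, 9.57, 9.34, 9.78, 8.88, 8.75, 8.24 and 7.91 on days 0 to 8. It was highest on day 4. It fell from day 4 to day 8 by 1.53 ± 0.26 (limma adjusted p = 0.00812), a level 3.65-fold lower on day 8 than on day 4 but only 1.91-fold lower than on day 0.

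CCNB2 (cyclin B2), a partner of CDK1, had levels of 10.87, 11.16, 11.16, 11.09, 11.20, 10.80, 10.77, 10.30 and 9.95 on days 0 to 8, and KIF11, the motor that pushes the spindle poles apart, had levels of 9.12, 9.23, 9.66, 9.55, 9.56, 8.60, 8.29, 8.17 and 7.84. Both were high on days 2 to 4 and lowest on day 8. From day 4 to day 8 CCNB2 fell by 1.14 ± 0.19 (limma adjusted p = 0.00816) and KIF11 by 1.40 ± 0.24 (adjusted p = 0.00825).

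By role, 5 of the 6 kinases and checkpoint genes fell from day 4 to day 8: BUB1, its relative BUB1B, the Polo kinase PLK1, the Aurora kinase AURKB and its partner BIRC5 (survivin), with changes between -1.07 and -1.59. AURKA, the Aurora kinase of the spindle poles, had a change of -0.58 that did not pass. All 3 spindle motors and factors fell: KIF11, KIF20A and TPX2, the activator of AURKA. CDC20, which switches on the anaphase promoting complex, fell by 1.12 ± 0.23 (limma adjusted p = 0.017), and UBE2C, its ubiquitin carrier, changed by -0.93 ± 0.20 (adjusted p = 0.0194), below 2-fold.

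TOP2A, the topoisomerase that untangles sister chromosomes, had levels of 10.30, 11, 10.94, 11.13, 11.57, 10.83, 10.81, 10.62 and 10.18 on days 0 to 8. It was highest on day 4, and day 8 was close to day 0. It fell from day 4 to day 8 by 1.01 ± 0.26 (limma adjusted p = 0.0428), and the call was lost in 8 of its alternatives, among them those without day 3, 4, 5, 6 or 7. BUB1B was the one mitosis gene with its highest level on day 1, at 8.11, and its level on day 8 was 3.71-fold lower than on day 0.

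The other 4 mitosis genes had changes from day 4 to day 8 that did not pass. CDC2, the kinase that drives mitosis, changed by -0.70 ± 0.23 (limma adjusted p = 0.0962) and CCNB1, its cyclin, by -0.71 ± 0.19 (adjusted p = 0.0524). CENPA, the histone of the centromere, changed by -0.41, and its second probe went the other way, at 1.18, so that the direction of CENPA depends on the probe. MKI67, which encodes the proliferation antigen Ki-67, has 1 probe, which was detected on day 4 alone, so the time course says little about it.

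**Figure D3:**
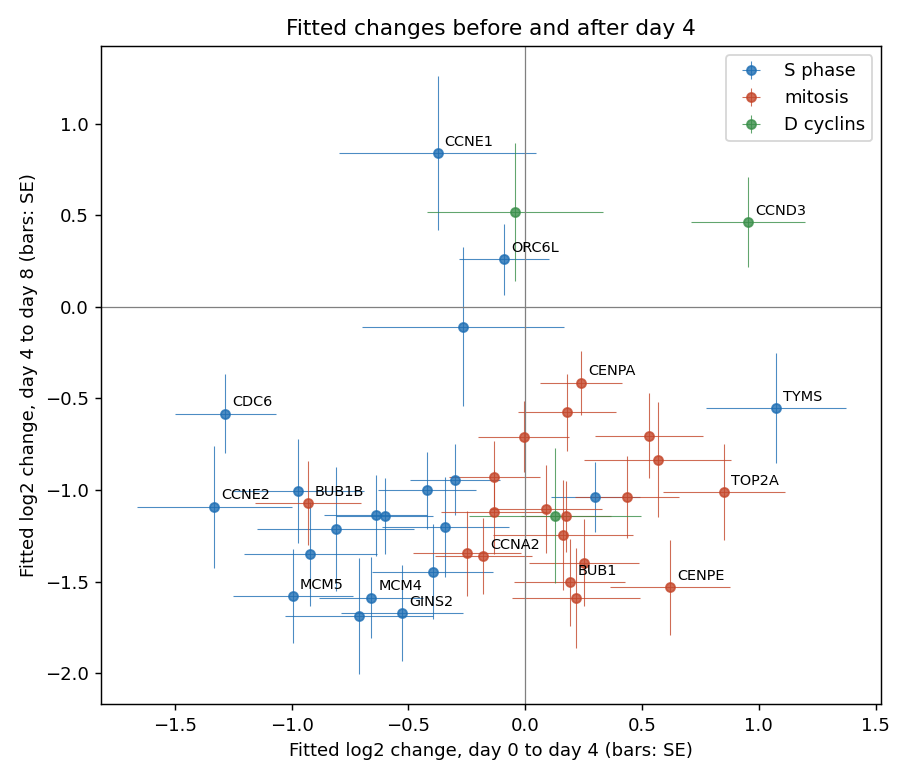
Fitted log2 change from day 0 to day 4 (horizontal) and from day 4 to day 8 (vertical) for each member, with the standard error of the fit as bars. Nearly all points lie below 0 on the vertical axis, S phase genes mostly left of 0 and mitosis genes on both sides, and CCNE1, the ORC6L probe used, CCND2 and CCND3 lie above 0.

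Promoters of 3 of these mitosis genes, each with 1 start in the table, are printed for comparison with those of the S phase group, with capitals as before. CENPE and KIF11 also have 1 start there and are not printed. KIF11 holds 1 set of CHR letters and 1 CCAAT box, and CENPE is described below. CCNA2 lies at chr4:121823834-121824133 on the minus strand, BUB1 at chr2:110678014-110678313 on the minus strand and CCNB2 at chr15:59104896-59105195 on the plus strand.
CCNA2: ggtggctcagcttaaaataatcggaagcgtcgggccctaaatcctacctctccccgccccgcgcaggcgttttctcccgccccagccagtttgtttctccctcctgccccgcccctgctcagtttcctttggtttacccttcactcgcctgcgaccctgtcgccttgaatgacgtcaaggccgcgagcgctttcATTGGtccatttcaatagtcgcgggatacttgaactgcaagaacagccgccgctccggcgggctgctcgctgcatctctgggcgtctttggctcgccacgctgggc
BUB1: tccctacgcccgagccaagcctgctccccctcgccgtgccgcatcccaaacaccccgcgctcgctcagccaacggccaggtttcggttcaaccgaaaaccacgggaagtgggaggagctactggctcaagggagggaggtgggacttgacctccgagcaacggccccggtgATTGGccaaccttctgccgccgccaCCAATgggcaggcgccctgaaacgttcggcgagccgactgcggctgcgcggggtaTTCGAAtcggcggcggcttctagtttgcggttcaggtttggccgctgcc
CCNB2: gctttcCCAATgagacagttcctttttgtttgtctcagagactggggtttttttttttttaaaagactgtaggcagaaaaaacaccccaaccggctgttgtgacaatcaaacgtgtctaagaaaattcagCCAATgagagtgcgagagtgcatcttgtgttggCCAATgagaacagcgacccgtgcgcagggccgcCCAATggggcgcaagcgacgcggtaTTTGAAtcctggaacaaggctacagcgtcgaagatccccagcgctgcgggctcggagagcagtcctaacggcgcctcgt

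CCNB2 holds CHR letters near the start with 4 CCAAT boxes upstream, and BUB1 holds CHR letters at the start with 2 CCAAT boxes. CCNA2 holds 1 CCAAT box and neither the CHR nor the E2F letters searched, and CENPE holds none of the 3 kinds. CHR letters stood in 10 of the 15 mitosis genes of the table (66.7%), against 19.5% of all genes, and 9 held CHR letters and a CCAAT box in 1 window (60%), against 7.85%. E2F letters stood in 2 of the 15 (13.3%). CCAAT boxes were common in both groups, in 13 of 15 mitosis genes (86.7%) and 13 of 17 S phase genes (76.5%), against 39.7% of all genes. TTCGAA reads the same on both strands, E2F letters on opposite strands can overlap, and no motif contains another. A match describes the letters of a window and does not show that a factor binds there, and of the 42 members 33 were in the table.

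**Figure D4:**
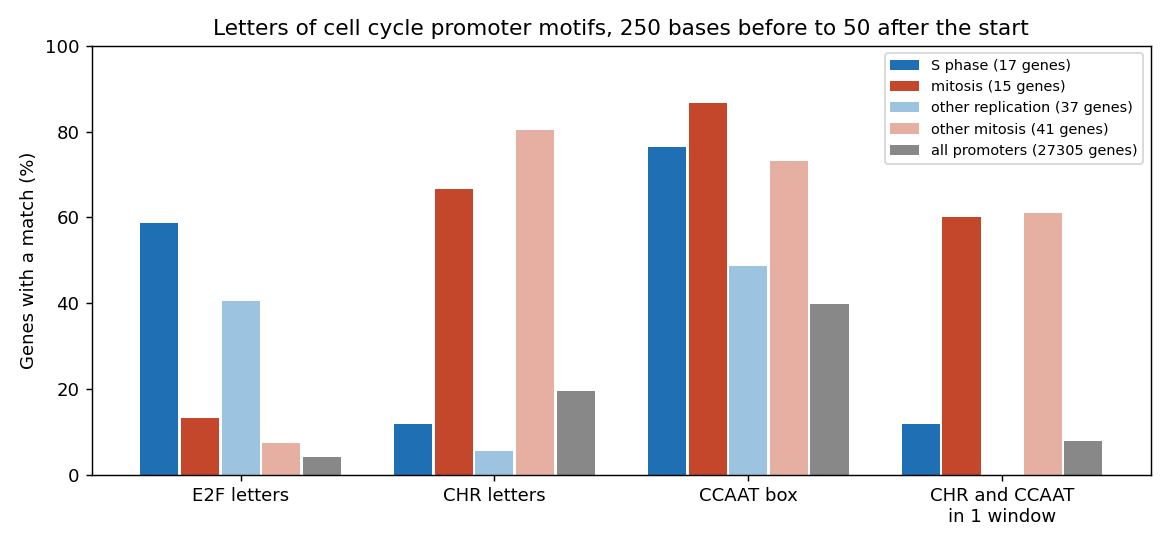
Percent of genes whose promoter window (250 bases before to 50 after the start, RefSeq) holds each set of letters, for the S phase and mitosis groups, the lists of other replication and other mitosis genes, and all promoters in the table. Among the bars for E2F letters that of the S phase group is the tallest (58.8%). Among those for CHR letters the other mitosis genes (80.5%) and the mitosis group (66.7%) are the tallest.

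The D cyclins, which link growth signals to the start of the cycle, included no gene that passed as lower. CCND3 had levels of 9.67, 9.66, 10.12, 10.41, 10.25, 10.92, 11.23, 11.17 and 10.98 on days 0 to 8. Its 4 latest days were its highest 4. It rose from day 0 to day 8 by 1.42 ± 0.28 (limma adjusted p = 0.00678).

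CCND1 had levels of 10.87, 11.76, 11.97, 11.08, 10.99, 11.20, 10.75, 10.45 and 10.08 on days 0 to 8. It was high on days 1 and 2 and lowest on day 8, and the change from day 4 to day 8 (-1.14 ± 0.37, limma adjusted p = 0.0898) did not pass. CCND2 had levels of 10.87, 11.23, 11.53, 10.38, 11.13, 11.02, 11.36, 11.51 and 11.44, with a low on day 3 and no trend by the test (adjusted p = 0.584).

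Other genes of the same pathways, taken from lists of replication, mitosis and regulatory genes, were counted in the same fit. Of 44 other replication genes 20 fell from day 4 to day 8 and none rose (median -0.89), and 22 fell from day 0 to day 8. Of all genes 2.81% fell and 5.22% rose from day 4 to day 8, and 10.8% fell from day 0 to day 8. The 5 with the lowest adjusted p were PRIM1, the primase subunit (-1.71 ± 0.20, limma adjusted p = 0.00148), UHRF1, which copies DNA methylation (-1.72 ± 0.21), FEN1, the flap nuclease (-1.58 ± 0.21), GINS4 (-1.52 ± 0.21) and POLE2, a subunit of polymerase epsilon (-1.33 ± 0.19). PRIM1 had levels of 10.38, 10.10, 9.98, 9.87, 9.74, 9.16, 8.83, 8.21 and 7.95 on days 0 to 8, lower on every day than on the day before. Promoter windows of 15 of 37 genes of this list held E2F letters (40.5%).

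Of 44 other mitosis genes 26 fell from day 4 to day 8 and none rose (median -1.04), beside 2.81% and 5.22% of all genes. All 44 fitted changes were negative, beside 8969 of the 16710 genes tested. The 5 with the lowest adjusted p were HMMR, a spindle protein (-1.60 ± 0.22, limma adjusted p = 0.00345), NCAPG, a condensin subunit (-1.48 ± 0.21), ASPM, a spindle pole protein (-1.31 ± 0.19), TACC3, which steadies spindle fibres (-1.45 ± 0.23), and CDC25C, the phosphatase that activates CDK1 (-1.36 ± 0.23). NCAPG had levels of 9.88, 10.18, 10.38, 10.67, 10.40, 9.70, 9.27, 9.04 and 8.77 on days 0 to 8, highest on day 3. CHR letters stood in the windows of 33 of 41 genes of this list (80.5%).

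Of 31 regulators of the cell cycle 2 rose and 3 fell from day 4 to day 8, beside 5.22% and 2.81% of all genes, so the number that rose is near the general share and is no result about the list. The 2 that rose encode inhibitors of cyclin-dependent kinases. CDKN1A (p21) had levels of 8.13, 6.90, 7.12, 7.44, 7.54, 7.91, 8.69, 9.53 and 10.14 on days 0 to 8, lowest on day 1 and higher on each day after it. It rose from day 4 to day 8 by 2.68 ± 0.31 (limma adjusted p = 0.00131).

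CDKN1C (p57) had levels of 6.29, 7.43, 5.72, 7.21, 8.52, 10.14, 10.11, 10.85 and 11.59 on days 0 to 8, and every day from day 4 on lay above every day before. It rose from day 4 to day 8 by 2.99 ± 0.60 (limma adjusted p = 0.0156), a call that did not hold with the submitters' normalized values. CDKN1B (p27) rose earlier, from day 0 to day 4, by 1.31 ± 0.31 (adjusted p = 0.0217). CDKN2B and CDKN2D did not pass over any interval, with changes of -0.32 and 0.06 from day 4 to day 8, and CDKN2B was detected on 1 day.

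The 3 regulators that fell from day 4 to day 8 were E2F7, an E2F factor that represses others (-1.53 ± 0.23, limma adjusted p = 0.00453), FOXM1, which drives mitosis genes (-1.79 ± 0.29, adjusted p = 0.0071), and CDC25A, the phosphatase that opens S phase (-1.5 ± 0.26, adjusted p = 0.00825). FOXM1 had levels of 8.52, 8.20, 8.35, 8.27, 8.41, 7.32, 7.05, 6.89 and 6.14 on days 0 to 8, level up to day 4 and lower on every later day.

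Markers of other cell types moved over the same days. The summed normalized intensity of the pluripotency markers was 7828 on day 0, 746 on day 4 and 117 on day 8, with 4 of 4 measured markers detected on day 0 and 1 on day 8. The sum of the endoderm markers was 1714, 2778 and 52861 on these days (1, 4 and 5 of 5 detected). That of the mesenchyme markers was 819, 6500 and 31098 (2, 5 and 5 of 5) and that of the red cell markers 187, 2884 and 33402 (0, 4 and 8 of 8). The red cell sum of day 0 is thus background. On day 4 none of the listed globin genes was detected, and the red cell sum was 919 on day 5. Their part in the fall of the members was not tested.

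Among the day 7 fractions, CD34lo CD41lo cells had the highest levels of replication and mitosis genes and CD34- CD41- cells the lowest. Measured as the median level relative to the mean of the 4 fractions, the S phase group stood at 1.08 in CD34lo CD41lo, -0.27 in CD34hi CD41-, -0.05 in CD34lo CD41- and -0.63 in CD34- CD41- cells (log2). The mitosis group stood at 0.55, -0.05, -0.02 and -0.42 in the same order, with MKI67, detected in CD34lo CD41lo cells alone, included. Both groups thus gave 1 order at both ends, and the middle fractions were close, with a median difference between CD34hi CD41- and CD34lo CD41- cells of -0.16 in the S phase and -0.04 in the mitosis group. With 1 array per fraction there is no test, and genes past 2-fold are counted with the share of all genes beside them.

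The level was highest in CD34lo CD41lo cells in 17 of 18 S phase genes and in 19 of 19 mitosis genes, where 35.1% of the 15340 genes measured were highest there. One of the 19, MKI67, was detected in that fraction alone and could not be highest elsewhere. Without it the count was 18 of 18. The level was lowest in CD34- CD41- cells in 13 of 18 S phase genes and 16 of 19 mitosis genes (15 of 18 without MKI67), against 34.1% of all genes. CD34hi CD41- cells had the lowest level of 4 S phase genes and 2 mitosis genes, against 26.7% of all genes. On the probes used, ORC6L was the 1 member of both groups highest in CD34- CD41- cells, where 30.3% of all genes were highest. Its probes disagreed: the bright probe used had 13.56 in CD34lo CD41lo, 13.72 in CD34hi CD41-, 13.67 in CD34lo CD41- and 13.82 in CD34- CD41- cells, and the second had 9.33, 8.07, 8.49 and 8.90 in the same order, highest in CD34lo CD41lo cells. The place of ORC6L therefore depends on the probe.

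CD34lo CD41lo cells stood above CD34- CD41- cells by a median of 1.75 in the S phase group and 1.09 in the mitosis group, against 0.10 over all genes. At least 2-fold higher were 13 of 18 S phase genes and 10 of 19 mitosis genes, beside 9.04% of all genes. The 19 and the mitosis medians of this paragraph include MKI67, detected in CD34lo CD41lo cells alone. Its differences, 0.32 to 0.42, were taken against the detection floor of the other fractions, and it is not among the 10. Against CD34hi CD41- cells the medians were 1.28 and 0.56, with 12 and 2 genes at least 2-fold higher, beside 5.92% of all genes. Against CD34lo CD41- cells they were 1.17 and 0.50, with 10 S phase genes and no mitosis gene past 2-fold, beside 3.04%. At 1 array a fraction the larger S phase difference was not tested.

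**Figure D5:**
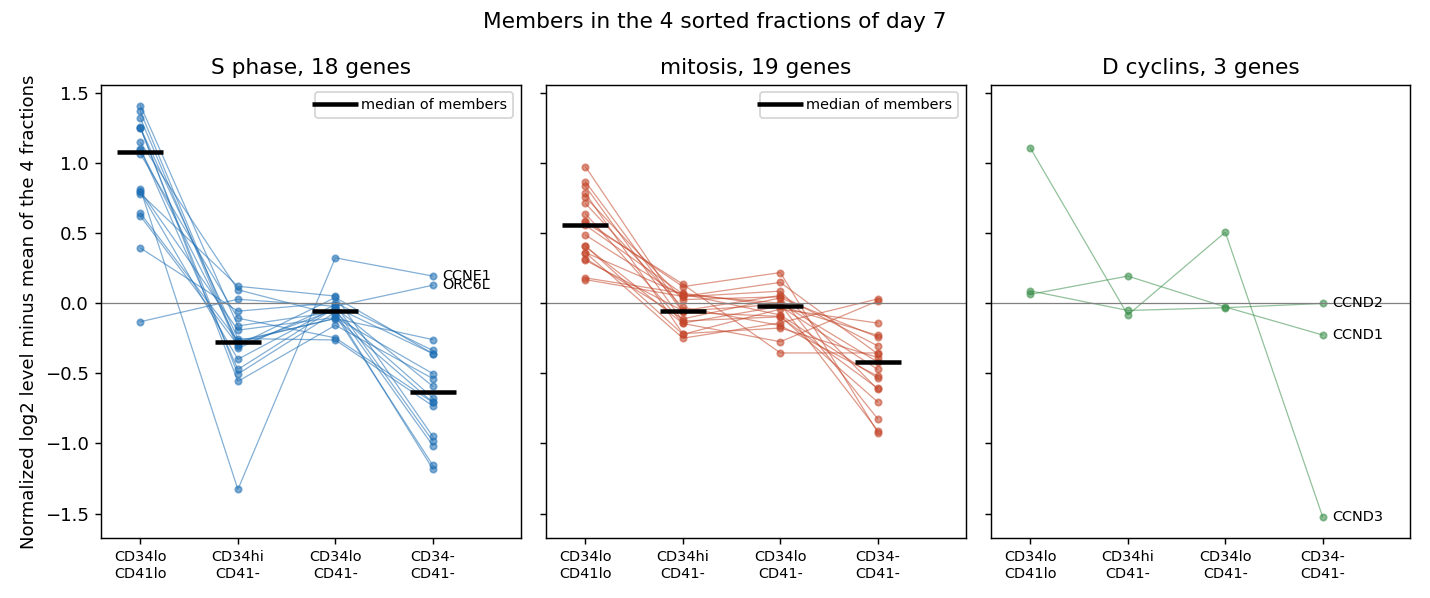
Normalized log2 level minus the mean of the 4 fractions, for each member detected in the fractions (thin lines) and the median of the S phase and mitosis groups (black bars), with the fractions along the horizontal axis. Both medians are highest in CD34lo CD41lo cells and lowest in CD34- CD41- cells. Single genes leave this order, among them CCNE1 and the ORC6L probe used, which are labelled, and MCM2, MCM3 and MCM7.

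RRM2 had the widest range of the S phase group, with 9.47 in CD34lo CD41lo, 7.90 in CD34hi CD41-, 8 in CD34lo CD41- and 6.88 in CD34- CD41- cells. It was 6.02-fold higher in CD34lo CD41lo than in CD34- CD41- cells. MCM10 had 9.26, 7.59, 7.85 and 6.88 in the same order and differed 5.23-fold between these fractions.

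CDT1, the loader, had 10.19 in CD34lo CD41lo, 9.14 in CD34hi CD41-, 8.96 in CD34lo CD41- and 7.89 in CD34- CD41- cells, and it was 2.39-fold higher in CD34hi CD41- than in CD34- CD41- cells. RRM2, CDT1 and TYMS were the 3 S phase genes at least 2-fold higher in CD34hi CD41- than in CD34- CD41- cells, where 7.54% of all genes were. They were also the 3 past 2-fold between CD34lo CD41- and CD34- CD41- cells, beside 2.91% of all genes. CCNE2 had 7.82, 6.18, 6.49 and 5.52 in the order of fractions above. CDT1 and CCNE2 stepped down in the order of the group medians, apart from the close middle fractions. The 6 subunits of the MCM ring were 1.87- to 3.46-fold higher in CD34lo CD41lo than in CD34- CD41- cells.

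Cyclin E1 (CCNE1) was the exception among the genes with wide ranges. It had 8.85 in CD34lo CD41lo, 6.71 in CD34hi CD41-, 8.36 in CD34lo CD41- and 8.23 in CD34- CD41- cells, so that the CD34hi CD41- fraction stood alone at the low end. It was 4.39-fold higher in CD34lo CD41lo than in CD34hi CD41- cells, and 2.86-fold lower in CD34hi CD41- than in CD34- CD41- cells, where 9.49% of all genes were at least 2-fold lower. Its level in CD34hi CD41- cells was also 3.13-fold lower than in CD34lo CD41- cells, where 4.45% of all genes were at least 2-fold lower. Further CCNE1 probes gave 7.92 and 8.49 in CD34lo CD41lo cells and 6.21 and 6.38 in CD34hi CD41- cells, and a dim probe was detected in 1 fraction.

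In the mitosis group CCNA2 had the widest range, with 10.59 in CD34lo CD41lo, 9.56 in CD34hi CD41-, 9.61 in CD34lo CD41- and 8.71 in CD34- CD41- cells, a 3.66-fold difference between the first and the last. PLK1 had 7.46, 6.73, 6.75 and 5.88 and CDC2 had 11.07, 10.14, 10.11 and 9.50 in the same order. Each of the 3 had nearly equal levels in the middle fractions.

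AURKB had 9.81 in CD34lo CD41lo, 9.34 in CD34hi CD41-, 9.44 in CD34lo CD41- and 8.30 in CD34- CD41- cells, so that the CD34- CD41- fraction stood apart from the other 3. AURKA had 10.56, 9.60, 9.63 and 9.12 in the same order, so that the CD34lo CD41lo fraction stood apart. AURKB was the 1 of 18 mitosis genes at least 2-fold higher in CD34hi CD41- than in CD34- CD41- cells, at 2.05-fold, beside 7.54% of all genes. It was also the 1 of 18 past 2-fold between CD34lo CD41- and CD34- CD41- cells, at 2.20-fold, beside 2.91% of all genes. The count of mitosis genes past 2-fold was thus no larger than the general share in the first pair and near it in the second.

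At the other end of the ranges, CENPE differed by 0.41 and KIF20A by 0.53 between CD34lo CD41lo and CD34- CD41- cells. On the probes used, the fitted fall of CENPE over days 4 to 8 was exceeded in the mitosis group by that of AURKB alone. Over the fractions the range of the CENPE probe used was the narrowest of the group. A second CENPE probe had 8.12, 7.75, 7.29 and 7.38 in the order of fractions used above, lowest in CD34lo CD41- cells. It differed by 0.74 between CD34lo CD41lo and CD34- CD41- cells, so the narrow range depends on the probe. Levels of the BIRC5, CENPA and CCNB1 probes used were not lowest in CD34- CD41- cells. BIRC5 had 7.62, 7.07, 6.94 and 7.23, CENPA 8.83, 8.22, 8.33 and 8.50 and CCNB1 8.97, 8.34, 8.52 and 8.42 in the order of fractions used above.

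Of the D cyclins CCND3 varied widely, with 12.78 in CD34lo CD41lo, 11.59 in CD34hi CD41-, 12.18 in CD34lo CD41- and 10.15 in CD34- CD41- cells, a 6.17-fold difference between the first and the last. Unlike the S phase and mitosis medians, it was separated between the middle fractions, by 1.51-fold. CCND1 had 11.29, 11.42, 11.20 and 11 and CCND2 had 11.75, 11.61, 11.63 and 11.66 in the same order. Neither of them reached 2-fold between any fractions.

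In the wider lists 37 of 41 other replication genes and 40 of 44 other mitosis genes were highest in CD34lo CD41lo cells, against 35.1% of all genes, and 26 and 41 were lowest in CD34- CD41- cells, against 34.1%. These counts leave out CLSPN, an adaptor of the replication checkpoint, which was detected in CD34lo CD41lo cells alone. FEN1 had 11.10 in CD34lo CD41lo, 9.55 in CD34hi CD41-, 10.05 in CD34lo CD41- and 9.38 in CD34- CD41- cells, and HMMR had 9.79, 9.09, 8.98 and 8.50. FOXM1 had 7.66, 7.18, 7.01 and 6.47.

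Inhibitors of cyclin-dependent kinases did not share 1 order. CDKN1C had 9.53 in CD34lo CD41lo, 8.45 in CD34hi CD41-, 10.37 in CD34lo CD41- and 11.01 in CD34- CD41- cells, highest where the members were lowest. CDKN1A had 9.51, 9.39, 8.61 and 7.25 in that order, highest with the members. CDKN2D had 7.43, 6.74, 6.71 and 5.83, CDKN1B 8.61, 8.31, 8.40 and 8.18, and CDKN2B was detected in CD34lo CD41lo cells alone.

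The fractions also differed in markers of cell type, given as summed normalized intensity. Red cell markers (8 of 8 detected in each fraction) summed to 57907 in CD34lo CD41lo, 2028 in CD34hi CD41-, 21244 in CD34lo CD41- and 11243 in CD34- CD41- cells. Endothelium markers (5 of 5 in each) summed to 3854, 15097, 5287 and 1099 in that order, and megakaryocyte markers (4, 2, 4 and 1 of 4 detected) to 1147, 568, 241 and 129. The last list includes ITGA2B, whose protein the fractions were sorted on, and GP9 of the same list was highest in CD34hi CD41- cells, with 7.54, 8.69, 5.89 and 4.80. Endoderm markers (5 of 5 in each) summed to 1673, 1529, 26614 and 37738, mesenchyme markers (4, 4, 5 and 5 of 5) to 1727, 3184, 13086 and 17125 and leukocyte markers (2, 3, 2 and 2 of 3) to 2073, 1154, 2291 and 3346. The 3 leukocyte markers did not share 1 order. LCP1 had 10.5, 9.88, 11 and 11.62 in the order of fractions above, highest in CD34- CD41- cells like the sum. SPN had 9.21, 7.3, 7.81 and 7.4, highest in CD34lo CD41lo cells, and CD53 was detected in CD34hi CD41- cells alone. The part of these cell types in the order of the fractions was not tested.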

How the data were processed

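Total RNA was labelled with biotin and hybridised to Illumina bead arrays, and GenomeStudio 2010.2 and lumi were used, per the submitters' processing notes. The authors deposited non-normalized intensities, some below 0, with a detection value (a fraction) beside each, per the file headers, and a matrix of normalized log2 values, used here as an alternative. Background correction and quantile normalization of the 13 arrays were done with neqc of limma 3.58.1 (R 4.3.3), with an offset of 16 and detection p taken as 1 minus the deposited value. Of 47231 probes 1 without values on the time course was dropped. Probes with a detection p below 0.01 on at least 1 array of an experiment were kept, and the brightest was used per symbol. Days were fitted with a natural spline (3 degrees of freedom, 5 residual). The test scripts were tested on simulated data. Where a fraction was not detected, its level was raised to its detection floor for a difference. The number of arrays limits the precision.

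The members and all gene lists were chosen with earlier results of these data known. Day values are given for the 5 members of each group with the lowest adjusted p for day 4 to 8 and for the D cyclins. Fraction values are given for the 5 of each group with the widest range. Of the other lists up to 5 genes are named, with every measured inhibitor of cyclin-dependent kinases. CDC6, CCNE2, TYMS, CCNE1, TOP2A, ORC6L, BIRC5, CENPA, CCNB1 and CLSPN, and the wider-list genes with day or fraction levels, were added after their values were seen. Alternatives were the submitters' values, other offsets, filters, probe rules, curves and priors, and the leaving out of single days.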

Additional observations from a re-analysis of the deposited data

How the results depend on the processing

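Each day and fraction had 1 array, which limits all results and leaves no replicates to pair. No count or median reversed its direction. The number of S phase genes that fell from day 4 to day 8 (11) was between 10 and 14 under all alternatives, and the number that fell from day 0 to day 8 was 15 under each. The number of mitosis genes that fell from day 4 to day 8 (13) was between 8 and 13 when single days were left out, with the lowest count without day 4. Calls from day 0 to day 4 were unstable. The number of S phase genes that rose (1) was 0 with the submitters' values and with no filter, and 0 to 1 with single days left out. The number that fell (2) was 1 with the submitters' values, with an offset of 50 and with no filter, 4 with a spline of 2 degrees of freedom, and 1 to 4 with single days left out. The number of mitosis genes that fell (0) was 1 with the submitters' values and with 2 degrees of freedom, and 0 to 1 with single days left out. In the fractions, the mean over probes gave 0 S phase genes (in place of 1) and 1 mitosis gene (in place of 0) highest in CD34- CD41- cells. The causes were not tested, and a fit without a day also has fewer arrays. Among single genes and the wider lists, 7714 alternative values kept their call, 210 lost it, 109 gained it and 18 counts moved.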

Other observations

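Some regulators outside the naming rule are given here, chosen after their values were seen. MYC and E2F2 had wider ranges over the fractions than any S phase or mitosis gene. MYC, a transcription factor that promotes growth and division, had 11.84 in CD34lo CD41lo, 8.75 in CD34hi CD41-, 10.95 in CD34lo CD41- and 8.58 in CD34- CD41- cells. E2F2, an activating E2F factor, had 9.16, 6.54, 7.13 and 6.40 in the same order. RB1, which holds E2F factors back, was highest in CD34hi CD41- cells, with 7.36, 8.79, 7.20 and 6.29. Over the days, WEE1, which restrains CDK1, fell from day 0 to day 4 (change -1.90, limma adjusted p = 0.00291), and CCNG2, a cyclin of resting cells, rose (2.28, adjusted p = 0.000669).

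Members with several probes mostly gave 1 direction, and a few did not. The second MCM10 probe had a change of -1.38 from day 4 to day 8, against -1.01 for the brighter probe used. The second CENPA probe was lower in CD34lo CD41lo than in CD34- CD41- cells, with a difference of -1.05 and levels of 7.80 and 8.85, whereas the probe used was higher there by 0.33. The second ORC6L probe was higher in CD34lo CD41lo than in CD34- CD41- cells by 0.44, against -0.27 for the probe used, and their changes from day 4 to day 8 were -0.43 and 0.26.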
